A study of Mus musculus with 6 samples.

Results

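The mitosis and spindle genes described here are 36 protein-coding genes of the mouse, chosen by name for their known work in dividing cells and found by their GENCODE vM21 symbols among the 55450 genes of the deposited tables. They were followed in Th17 cells, a class of CD4 helper T cell that makes interleukin 17, after retroviral expression of the RNA editing enzyme ADAR2. By known role they fell into cyclins and mitotic kinases (10 genes), chromosomal passengers and chromatin proteins (4), kinetochore proteins (6), spindle motors and microtubule proteins (7), cytokinesis proteins (7) and partners of the anaphase-promoting complex (2). The rule that picks them uses names and no expression value, but the list was drawn up with earlier results of these data known. The counts below are therefore descriptions and no independent test of the list. The 36 genes were also measured in the same 6 libraries and, as genes of the same process, can rise or fall together. They are not independent observations, and the shares over all genes given as background do not allow for that. All 36 passed the filter on low counts.

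A dividing cell enters mitosis when the kinase Cdk1 is switched on by cyclin A and cyclin B, builds a bipolar spindle of microtubules, and attaches each chromosome to it through the kinetochore. The spindle checkpoint holds the anaphase-promoting complex back until every kinetochore is attached, after which cyclin B is destroyed, the chromosomes part and the cell divides. The transcripts of these genes are made mainly in G2 and M phase, so in a culture their level is widely used as a sign of proliferation, and activated T cells are among the fastest dividing cells of the body.

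The 6 cultures fell into 3 groups of 2. The first received ADAR2 WT, the second ADAR2 E396A, a form without enzymatic activity, and the third the empty murine stem cell virus (MSCV) vector that carried both constructs. All came from naive CD4+ T cells of 2 wild-type mice within an age range of 8 to 12 weeks, called donors A and B here, each of which gave 1 culture per group (n = 2 per group). Every culture was activated with anti-CD3 (0.25 µg/mL) and anti-CD28 (1 µg/mL) under TGF-beta (0.1 ng/mL) and IL-6 (20 ng/mL), transduced at 24 h, and kept for a further 48 h with 0.3 ng/mL TGF-beta and the same IL-6, so that RNA was taken at 72 h. The labels name no sort for transduced cells, so each bulk library may average over cells with and without a construct. Each also averages over cells in all phases of the cycle. A smaller share of cells in mitosis and less RNA per cell cannot be told apart in such data.

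Reads assigned to genes numbered 16496328 to 21897166 per library. Levels are given as normalized counts, which are reads divided by a median-of-ratios size factor of the library. Adarb1, the gene of ADAR2, had 18422 and 18999 normalized counts in the ADAR2 WT libraries of donors A and B, 15644 and 14920 in ADAR2 E396A, and 3672 and 3333 in empty vector. Transgene and endogenous transcripts are counted together in these values. Its log2 fold change was 2.42 ± 0.07 (SE) for ADAR2 WT (limma adjusted p = 2.21e-06) and 2.13 ± 0.07 for ADAR2 E396A (limma adjusted p = 6.48e-06), both over empty vector. All 8 markers of CD4 T and Th17 cells passed the filter, among them Cd4 with 12013 to 15997 normalized counts. The summed markers of B cells, of myeloid cells and of erythroid cells each stayed between 8 and 56 normalized counts in every library, and of the 2, 1 and 1 that passed the filter 0 passed the test in any comparison.

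In the empty-vector cells the 36 genes were well expressed. Per kilobase of exon, the median gene among them had 280 normalized counts, against 77.7 for the median of the 14958 genes tested, and all 36 lay above that median. On the same per-kilobase scale Top2a, the topoisomerase that untangles replicated DNA, was the highest at 1290, followed by Mki67, which coats mitotic chromosomes and encodes the proliferation marker Ki-67, at 1090, and Tpx2, a spindle assembly factor, at 729. Ttk, the checkpoint kinase also called MPS1, was the lowest at 88.8. Reads per gene and library ranged from 392 to 15504.

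The promoters of these genes are known for a pair of short elements, the cell cycle genes homology region (TTTGAA), read by the MuvB core of the DREAM complex, and the CCAAT box, bound by NF-Y. Of the 17 members whose values per library are given by rule, the promoters of 6 are shown here. They hold the whole of a TTTGAA match within 130 bases upstream of the start. Each is the 130 bases that end just before the RefSeq transcription start (GRCm38.p6), 5′ to 3′ along the gene, with TTTGAA and CCAAT on either strand (TTCAAA and ATTGG on the other) in capitals.
Mki67 (chr7:135716380-135716509, minus strand): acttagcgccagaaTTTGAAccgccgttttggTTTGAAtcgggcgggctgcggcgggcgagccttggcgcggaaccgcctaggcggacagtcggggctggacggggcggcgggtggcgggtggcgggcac
Top2a (chr11:99024190-99024319, minus strand): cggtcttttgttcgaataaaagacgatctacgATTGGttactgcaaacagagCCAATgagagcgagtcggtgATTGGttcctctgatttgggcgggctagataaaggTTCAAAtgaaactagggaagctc
Cdk1 (chr10:69352913-69353042, minus strand): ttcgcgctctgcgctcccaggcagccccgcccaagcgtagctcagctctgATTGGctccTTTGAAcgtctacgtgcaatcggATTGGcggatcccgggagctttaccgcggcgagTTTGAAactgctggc
Kif11 (chr19:37376252-37376381, plus strand): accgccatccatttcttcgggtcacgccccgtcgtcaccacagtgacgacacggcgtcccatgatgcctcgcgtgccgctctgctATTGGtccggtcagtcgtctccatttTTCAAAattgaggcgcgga
Cdc20 (chr4:118437344-118437473, minus strand): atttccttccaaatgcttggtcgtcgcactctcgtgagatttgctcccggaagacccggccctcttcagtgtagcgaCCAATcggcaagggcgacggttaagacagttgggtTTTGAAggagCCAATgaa
Ube2c (chr2:164769799-164769928, plus strand): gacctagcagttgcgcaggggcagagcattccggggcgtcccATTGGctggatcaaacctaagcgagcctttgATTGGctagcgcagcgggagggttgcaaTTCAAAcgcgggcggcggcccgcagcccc
The TTTGAA match nearest the start began 15 bases upstream in Cdk1, 18 in Cdc20, 19 in Kif11, 23 in Top2a, 29 in Ube2c and 98 in Mki67. These positions follow from the choice of promoters with an upstream match. Over all windows of the members, 38.71% held a match beginning at bases 0 to 24, 19.35% at 25 to 49 and 16.13% at -25 to -1. Shares of all promoter windows were 1.31%, 0.97% and 1.38%. The CCAAT matches of Mki67 began at -188, -166 and -141, outside the stretch shown.

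RefSeq promoter windows, from 250 bases before the start to 50 after it, were found for 31 of the 36 genes. TTTGAA on either strand was present in 25 of the 31 windows (80.6%), against 5878 of all 32851 promoter windows (17.9%). Within 50 bases of the start the shares were 74.2% and 4.94%. CCAAT on either strand was present in 77.4% of the members' windows and 37.4% of all windows, and both motifs in 67.7% and 6.95%, with 1 overlap between the motifs among the members. Among the 82 windows of further mitosis genes, a list of 100 other genes of the same processes, 41.5% held TTTGAA. Among the 41 windows of 50 genes of DNA replication and S phase, the share was 14.6%. The GC content was 58.7% in the members' windows and 53.8% in all windows. These matches describe the letters in the windows and were not tested against the expression values.

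**Figure D1:**
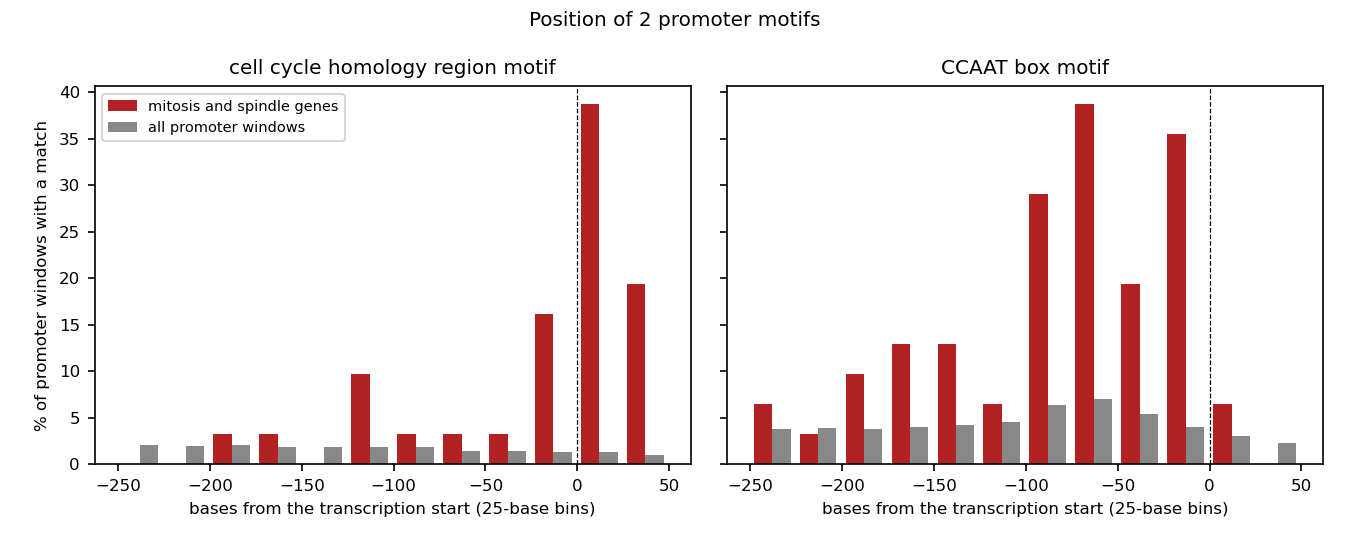
Share of promoter windows (%) with a match whose left end falls in each 25-base bin, by distance from the RefSeq transcription start in bases, for the 31 windows of mitosis and spindle genes (red) and all 32851 windows (grey). In the bin of bases 0 to 24 after the start, 38.71% of the members' windows held the cell cycle homology region motif, against 1.31% of all windows.

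One library stood apart before any comparison was made. Empty vector in donor A had the lowest value of the 6 libraries for 30 of the 36 genes, and ADAR2 WT in donor A had the highest for 26. Among all genes tested these libraries were lowest for 18.9% and highest for 16.6%. The summed level of the 36 genes was 83318 and 78610 normalized counts in ADAR2 WT (donors A and B), 75256 and 78005 in ADAR2 E396A, and 65581 and 70988 in empty vector. The 4 libraries with a construct thus lay above both empty-vector libraries. Empty vector of donor B exceeded empty vector of donor A for 32 of the 36 genes. The share of all genes with that order was not computed. The same empty-vector libraries serve as control for both constructs, so both comparisons share their deviation.

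**Figure D2:**
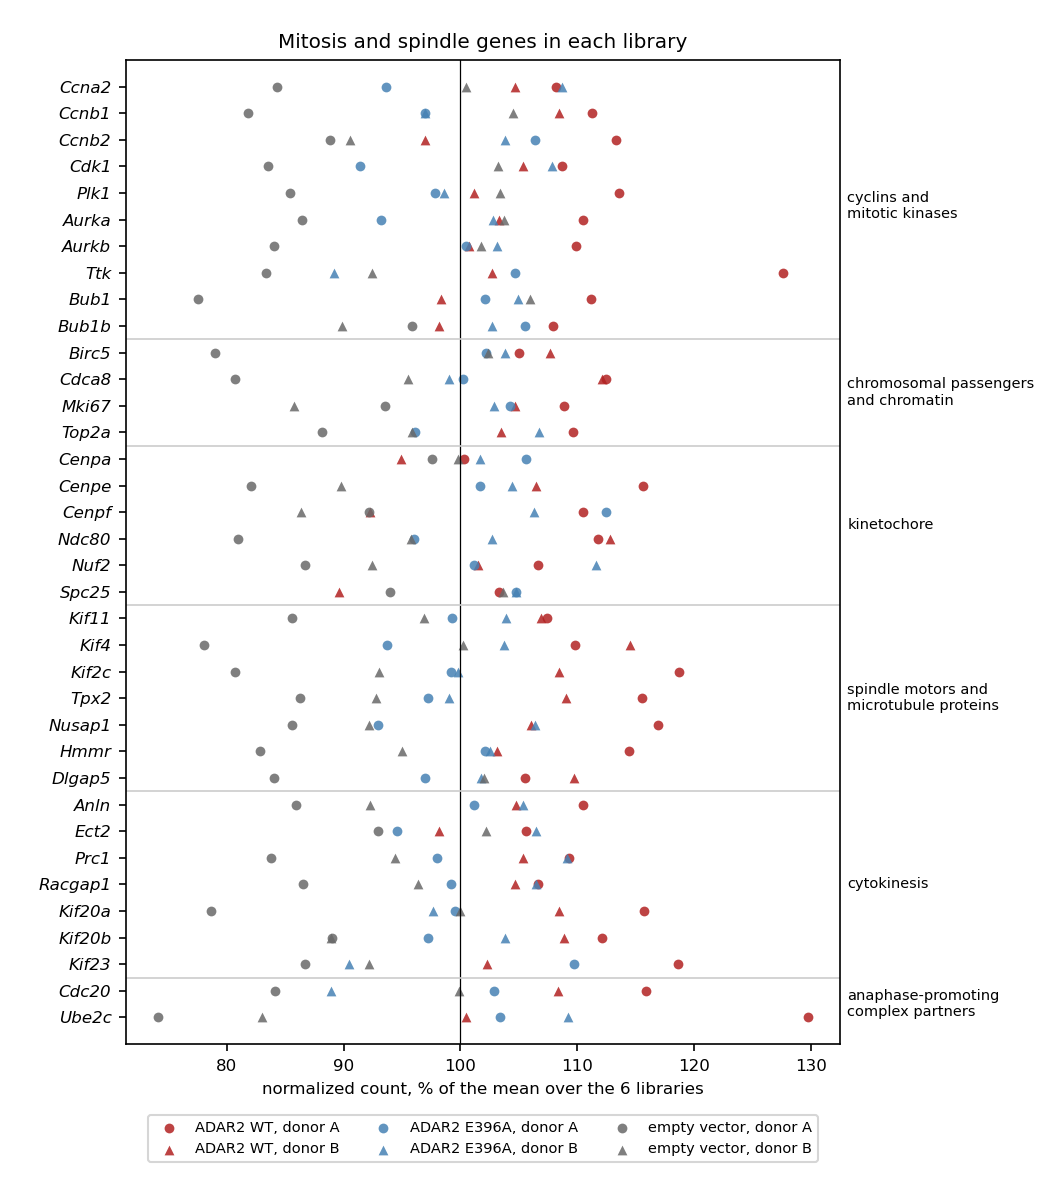
Level of each of the 36 genes in each library as a percentage of the gene's mean over the 6 libraries, by role; circles are donor A, triangles donor B, and red, blue and grey are ADAR2 WT, ADAR2 E396A and empty vector. The grey circle of empty-vector donor A is the leftmost point for 30 of the 36 genes, and the red circle of ADAR2 WT donor A the rightmost for 26.

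The first comparison asked how cells with active ADAR2 differed from empty-vector cells of the same donor. Mitosis and spindle genes had slightly higher levels with ADAR2 WT, by a median log2 fold change of 0.25 against 0 for all genes tested, and 34 of 36 were above 0, against a background of 49.6% of all genes tested. None of the 36 passed at a limma adjusted p under 0.05, which 122 of 14958 genes (0.816%) reached. At an unadjusted limma p under 0.05, 27 of the 36 were higher and 0 lower (background 6.99% higher and 7.11% lower). Both ADAR2 WT libraries lay above both empty-vector libraries for 29 of the 36 genes (background 18.7%) and below for 0 (background 18.5%). Standard errors ran from 0.06 to 0.14 on the log2 scale.

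The differences were larger in donor A. The median log2 difference between ADAR2 WT and empty vector was 0.39 within donor A, where all 36 genes were higher (background 50%), and 0.12 within donor B, where 29 were (background 49.7%). The difference was larger in donor A for 35 of the 36 genes, against 7585 of all 14958 genes tested. Of the 36, 29 were higher within each donor (background 31.2%). With empty vector of donor A left out, the median was 0.15 and 11 of the 36 genes had an unadjusted limma p under 0.05, against 1221 of the 15838 genes then tested (7.71%). With ADAR2 WT of donor A left out, the median was 0.16 and 0 of the 36 did, against 764 of 15801 genes (4.84%). With all 6 libraries the count was 2108 of 14958 (14.1%). The part of either library in the difference was not otherwise tested.

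Calls on single members depended on the fit. DESeq2 on the recovered reads passed 2 of the 36 genes, Cenpe and Tpx2, with a lowest adjusted p of 0.0282, and 212 of all 14958 genes (1.42%). Limma on the 4 libraries of ADAR2 WT and empty vector alone passed 20 members and 1237 of all 14430 genes (8.57%). That fit leaves 1 residual degree of freedom. It gave Adarb1 a limma adjusted p of 7.06e-243, against 2.21e-06 with all 6 libraries. edgeR on all 6 libraries passed 0 members and 127 genes (0.849%), and limma without the donor term 0 members and 2 genes (0.0134%). Fits with a library left out passed 0 to 19 members and 1 to 1217 of all genes. At an unadjusted p under 0.05, the 27 members became 18 with DESeq2 (6.86% of all genes), 17 without the donor term (6.33%) and 10 in limma without the mean-variance trend (10.4%). In the authors' deposited table, 0 of the 36 had an adjusted p under 0.05 and the lowest was 0.0549, for Cenpe.

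**Figure D3:**
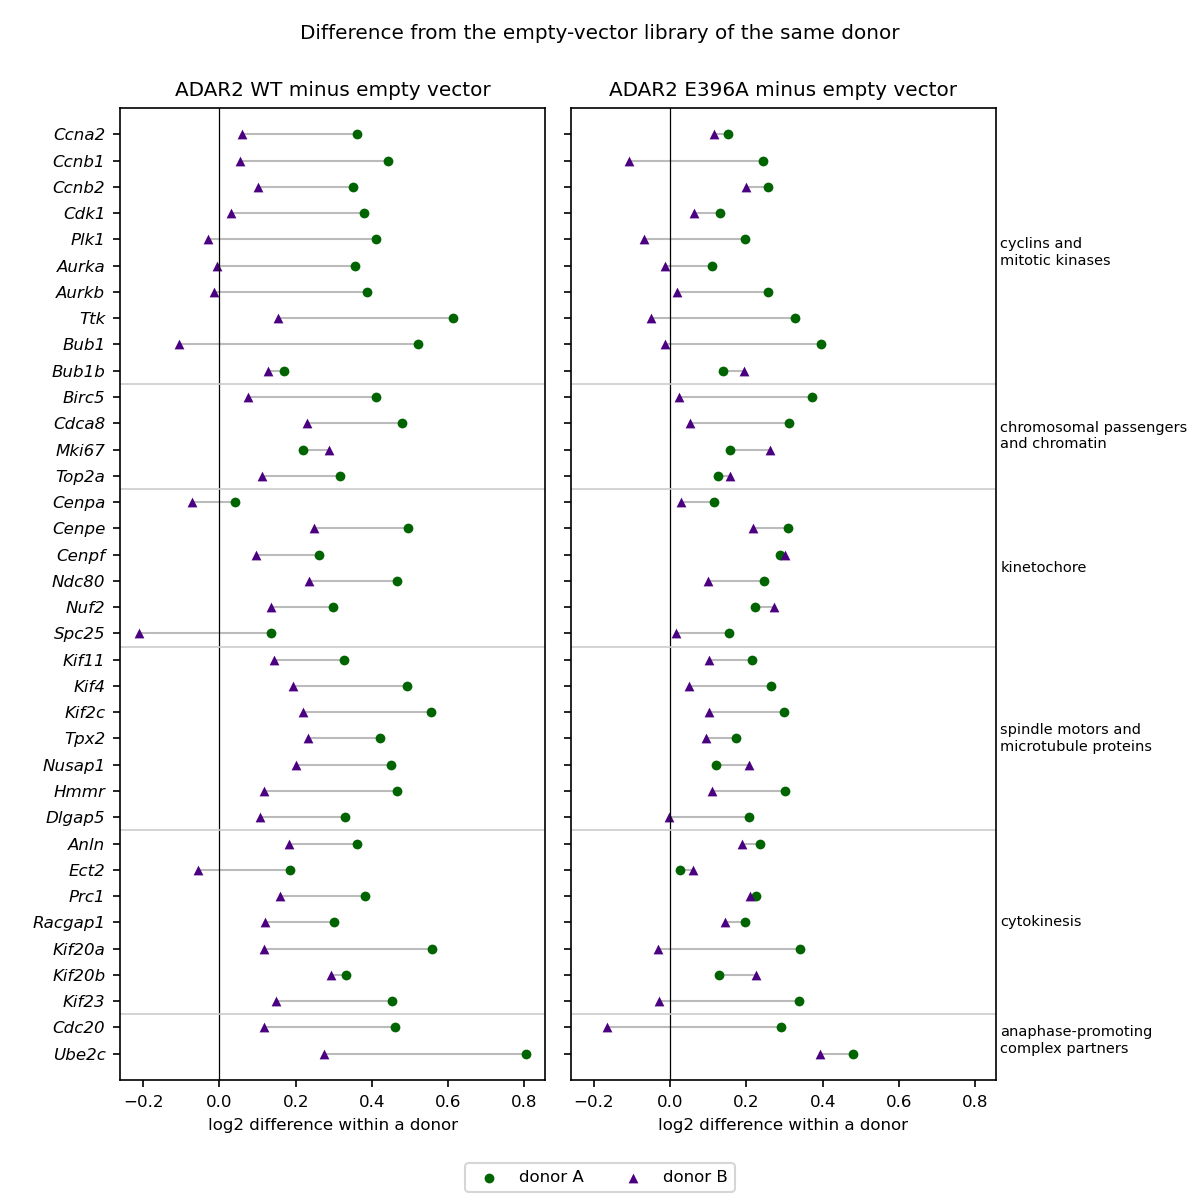
Log2 difference of each gene from the empty-vector library of the same donor, for ADAR2 WT (left) and ADAR2 E396A (right), with circles for donor A and triangles for donor B joined by a line. Donor A lies further right for 35 of 36 genes with ADAR2 WT, against 7585 of all 14958 genes tested. With ADAR2 E396A it does so for 28 of 36, against 7262 of 14958.

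Among the cyclins and mitotic kinases the median log2 fold change of ADAR2 WT over empty vector was 0.21, with all 10 genes above 0 and 0 passing. Ccnb1, cyclin B1 and the activating partner of Cdk1, had 1848 and 1801 normalized counts in ADAR2 WT (donors A and B), 1610 and 1610 in ADAR2 E396A, and 1359 and 1735 in empty vector. Both ADAR2 WT values were above both empty-vector values, but by little in donor B, and the log2 fold change was 0.25 ± 0.10 (SE, limma adjusted p = 0.317). Cdk1, the kinase that drives entry into mitosis, had 1815 and 1759 in ADAR2 WT, 1526 and 1801 in ADAR2 E396A, and 1394 and 1724 in empty vector. Both ADAR2 WT values were again above both empty-vector values (log2 fold change 0.20 ± 0.09, limma adjusted p = 0.375).

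Plk1, a kinase of spindle assembly and mitotic exit, had 959 and 854 normalized counts in ADAR2 WT, 826 and 832 in ADAR2 E396A, and 721 and 873 in empty vector. The groups overlapped, since empty vector was above ADAR2 WT in donor B. Aurkb, the Aurora B kinase that corrects faulty spindle attachments, had 1490 and 1366 in ADAR2 WT, 1362 and 1398 in ADAR2 E396A, and 1139 and 1380 in empty vector, and in donor B the ADAR2 WT value was below the empty-vector value. Bub1b (BubR1), a checkpoint protein, had 1904 and 1733 in ADAR2 WT, 1862 and 1812 in ADAR2 E396A, and 1692 and 1585 in empty vector, with all 4 construct libraries above both empty-vector libraries. Their log2 fold changes for ADAR2 WT were 0.19, 0.19 and 0.15. With a library left out, those of Plk1 and Aurkb ran from 0.01 to 0.37 and from 0.03 to 0.35.

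Ttk (ENSMUSG00000038379.15, chr9:83834689-83872389 in mm10) had the third highest fold change of the 36 genes. It measured 634 and 510 normalized counts in ADAR2 WT, 520 and 443 in ADAR2 E396A, and 414 and 459 in empty vector, so ADAR2 WT stood above empty vector in both donors. The log2 fold change was 0.38 ± 0.12 (SE, limma adjusted p = 0.231), made of 0.61 within donor A and 0.15 within donor B. The remaining kinases and cyclins of the group, Ccna2, Ccnb2, Aurka and Bub1, had log2 fold changes from 0.17 to 0.23 in this comparison. Bub1, another checkpoint kinase, differed most between donors, with 0.52 in donor A and -0.11 in donor B.

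The chromosomal passengers and chromatin proteins had a median log2 fold change of 0.25, and for all 4 both ADAR2 WT libraries were above both empty-vector libraries. Mki67 (ENSMUSG00000031004.8, chr7:135689784-135716361 in mm10) had 13267 and 12759 normalized counts in ADAR2 WT, 12705 and 12536 in ADAR2 E396A, and 11401 and 10447 in empty vector. Here empty vector of donor B was the lowest of the 6 and the within-donor log2 differences were similar, 0.22 in donor A and 0.29 in donor B (fold change 0.25 ± 0.06, limma adjusted p = 0.123). Top2a had 13886 and 13101 in ADAR2 WT, 12169 and 13514 in ADAR2 E396A, and 11158 and 12132 in empty vector (log2 fold change 0.21 ± 0.07, limma adjusted p = 0.253). Birc5 (survivin), which brings Aurora B to the centromere, had 1469 and 1506 in ADAR2 WT, 1429 and 1452 in ADAR2 E396A, and 1104 and 1431 in empty vector. Empty vector of donor A stood alone below the other 5 (log2 fold change 0.24 ± 0.10, limma adjusted p = 0.317). Cdca8 (borealin), of the same complex, was at 0.35 on the log2 scale.

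The kinetochore genes had a median log2 fold change of 0.20, with a range from -0.04 to 0.37. Cenpe (ENSMUSG00000045328.11, chr3:135212537-135273611 in mm10), a kinetochore motor that moves chromosomes to the spindle equator, had 3334 and 3070 normalized counts in ADAR2 WT, 2932 and 3010 in ADAR2 E396A, and 2365 and 2588 in empty vector. All 4 construct libraries were above both empty-vector libraries, and the fold change of 0.37 ± 0.08 on the log2 scale had the lowest limma adjusted p of the 36 genes, 0.0813. Ndc80, the microtubule-binding core of the kinetochore, had 1249 and 1260 in ADAR2 WT, 1073 and 1147 in ADAR2 E396A, and 904 and 1070 in empty vector, in that order without overlap (log2 fold change 0.35 ± 0.08, limma adjusted p = 0.12).

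Spc25 (ENSMUSG00000005233.16, chr2:69193895-69206194 in mm10), a subunit of the same complex as Ndc80, was not higher with ADAR2 WT. It had 922 and 800 normalized counts in ADAR2 WT, 935 and 935 in ADAR2 E396A, and 839 and 925 in empty vector, and the log2 fold change was -0.04 ± 0.10 (95% interval -0.26 to 0.19). Cenpa, the centromeric histone, had 796 and 753 in ADAR2 WT, 838 and 807 in ADAR2 E396A, and 774 and 792 in empty vector, and its log2 fold change was -0.02 ± 0.08 (95% interval -0.20 to 0.17). These were the only members below 0 in this comparison, and in both the ADAR2 WT and empty-vector values overlapped. Nuf2, which pairs with Ndc80, and Cenpf, a large kinetochore protein, had 0.22 and 0.18.

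The spindle motors and microtubule proteins had a median log2 fold change of 0.33, and all 7 were higher within each donor. Tpx2 (ENSMUSG00000027469.16, chr2:152847964-152895321 in mm10) had 4403 and 4155 normalized counts in ADAR2 WT, 3704 and 3773 in ADAR2 E396A, and 3287 and 3534 in empty vector. The 3 groups did not overlap, and the log2 fold change of ADAR2 WT over empty vector was 0.33 ± 0.07 (limma adjusted p = 0.0861). Kif2c (ENSMUSG00000028678.13, chr4:117159639-117182639 in mm10), a motor that takes microtubules apart at the centromere, had 981 and 896 in ADAR2 WT, 820 and 825 in ADAR2 E396A, and 667 and 769 in empty vector, also without overlap. Its log2 fold change of 0.39 ± 0.10 was the second highest of the 36 genes (limma adjusted p = 0.14). Kif11 (Eg5), the motor that pushes spindle poles apart, had 3231 and 3214 in ADAR2 WT, 2986 and 3123 in ADAR2 E396A, and 2574 and 2912 in empty vector (log2 fold change 0.24 ± 0.07, limma adjusted p = 0.198). The chromosome motor Kif4 and the spindle proteins Nusap1, Hmmr and Dlgap5 ranged from 0.22 to 0.34.

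The cytokinesis genes had a median of 0.27. Prc1, which bundles the midzone microtubules, had 1939 and 1868 normalized counts in ADAR2 WT, 1738 and 1935 in ADAR2 E396A, and 1486 and 1674 in empty vector. Anln (anillin), a scaffold of the contractile ring, had 1008 and 956 in ADAR2 WT, 923 and 961 in ADAR2 E396A, and 784 and 842 in empty vector. For both genes the construct libraries all lay above the empty-vector libraries, with a log2 fold change of 0.27 ± 0.08 each for ADAR2 WT (limma adjusted p = 0.192 for Prc1 and 0.207 for Anln). Ect2, the activator of RhoA at the cleavage furrow, had 1276 and 1186 in ADAR2 WT, 1142 and 1286 in ADAR2 E396A, and 1122 and 1234 in empty vector, with overlap between all groups and the third lowest fold change, 0.06 ± 0.09. Racgap1 and the midzone motors Kif20a, Kif20b and Kif23 ran from 0.21 to 0.34.

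The partners of the anaphase-promoting complex included the highest fold change. Ube2c (ENSMUSG00000001403.13, chr2:164769898-164778822 in mm10), the ubiquitin-conjugating enzyme of the complex, had 714 and 553 normalized counts in ADAR2 WT, 569 and 601 in ADAR2 E396A, and 408 and 457 in empty vector. All 4 construct libraries were above both empty-vector libraries, and the log2 fold change was 0.54 ± 0.13 (SE, limma adjusted p = 0.129), with 0.80 in donor A and 0.27 in donor B. Cdc20, the activator through which the checkpoint acts, had 1050 and 982 in ADAR2 WT, 932 and 806 in ADAR2 E396A, and 762 and 905 in empty vector, with ADAR2 WT above empty vector in both donors (log2 fold change 0.29 ± 0.11, limma adjusted p = 0.304). Exons of 9 members, Ccna2, Plk1, Kif20a, Kif4, Nusap1, Cdc20, Prc1, Ube2c and Cdca8, overlap exons of a gene on the other strand, by at most 1271 bases (Kif20a with Cdc23) and at least 53 (Cdc20), with 911 in Prc1, 832 in Kif4, 592 in Ube2c and 510 in Ccna2. The strand setting of the counting is not given in the sources used here, so reads of such neighbours cannot be told apart. Pseudogenes named after Ccnb1, Ccnb2 and Kif4 could also share reads with them.

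**Figure D4:**
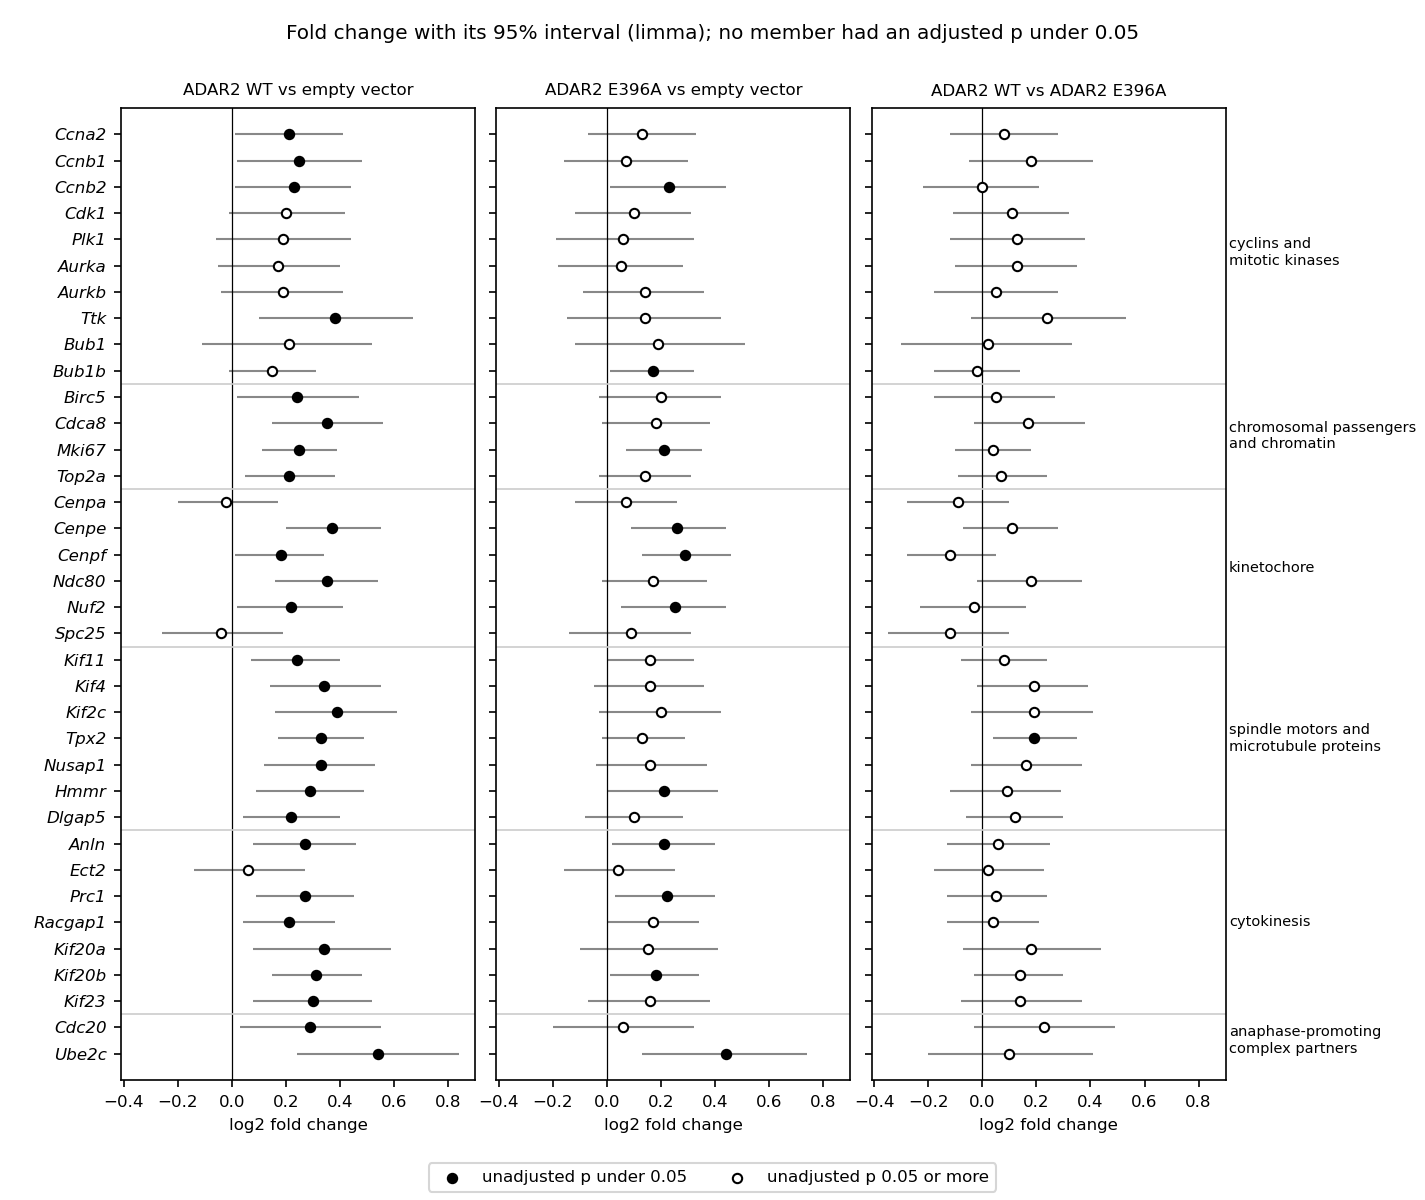
Log2 fold change of each gene with its 95% interval from limma in the 3 comparisons, by role; filled points have an unadjusted p under 0.05. There are 27, 11 and 1 filled points, all to the right of 0, and none has an adjusted p under 0.05.

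The second comparison asked whether the form without enzymatic activity differed from empty vector. All 36 genes had a log2 fold change above 0 (background 46.9%), with a median of 0.16 against -0.01 for all genes tested. None passed at a limma adjusted p under 0.05, which 2 of 14958 genes (0.0134%) reached, and the lowest adjusted p of the members was 0.999. At an unadjusted limma p under 0.05, 11 were higher and 0 lower (background 2.11% and 1.78%). edgeR and DESeq2 also passed 0 members. The 11 became 4 with DESeq2 (0.969% of all genes), 5 without the donor term (1.32%) and 1 in limma without the mean-variance trend (5.06%). Both ADAR2 E396A libraries were above both empty-vector libraries for 21 genes (background 11.5%). In the authors' deposited table, 0 of the 36 had an adjusted p under 0.05.

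By role, the median log2 fold changes of ADAR2 E396A over empty vector were 0.14 for cyclins and kinases, 0.19 for passengers and chromatin, 0.21 for the kinetochore, 0.16 for spindle motors, 0.17 for cytokinesis and 0.25 for the anaphase-promoting complex partners. The highest single values were those of Ube2c (0.44 ± 0.13), Cenpf (0.29 ± 0.07) and Cenpe (0.26 ± 0.08). Cenpf had 3109 and 2596 normalized counts in ADAR2 WT, 3165 and 2991 in ADAR2 E396A, and 2593 and 2430 in empty vector, and its difference between ADAR2 E396A and empty vector was nearly the same in both donors (0.29 and 0.30). The lowest were those of Ect2 (0.04 ± 0.09), Aurka (0.05 ± 0.10) and Cdc20 (0.06 ± 0.11). Aurka, the Aurora A kinase of the spindle poles, had 1024 and 958 in ADAR2 WT, 864 and 953 in ADAR2 E396A, and 801 and 962 in empty vector. In donor B its values lay within 953 to 962, and the groups overlapped.

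The median log2 difference was 0.23 within donor A, with all 36 genes higher (background 47.2%), and 0.10 within donor B, with 27 higher (background 50.2%). The difference was larger in donor A for 28 genes, against 7262 of all 14958 genes tested. This comparison depended on which empty-vector library was kept. Without that of donor A the median log2 fold change was 0.06 and 23 members were above 0. Without that of donor B the median was 0.27 and 36 were above 0. The shares of all genes above 0 in these fits were not computed. Which of the empty-vector libraries deviates was not tested.

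In the third comparison, ADAR2 WT against ADAR2 E396A, the fold changes do not rest on the level in empty vector. Its p-values do use a spread estimated from all 6 libraries, empty vector included. The median log2 fold change was 0.09, against 0 for all genes tested, and 30 of the 36 genes were above 0 (background 50.9%). None passed at a limma adjusted p under 0.05, which 10 of 14958 genes (0.0669%) reached. At an unadjusted limma p under 0.05 there was 1, Tpx2, with a log2 fold change of 0.19 ± 0.07 (limma adjusted p = 0.314) and differences of 0.25 in donor A and 0.14 in donor B (background 6.43% higher and 5.96% lower). edgeR and DESeq2 passed 0 members. Limma on the 4 libraries of both constructs alone, with 1 residual degree of freedom, also passed 0. In that fit 9 members had an unadjusted limma p under 0.05, against 2418 of 14571 genes (16.6%). Both ADAR2 WT libraries were above both ADAR2 E396A libraries for 17 genes (background 19.4%) and below for 2, Cenpa and Spc25 (background 17.3%).

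The highest values of ADAR2 WT over ADAR2 E396A were those of Ttk (0.24 ± 0.12), Cdc20 (0.23 ± 0.11) and Tpx2. The lowest were those of Spc25 (-0.12 ± 0.10), Cenpf (-0.12 ± 0.07) and Cenpa (-0.09 ± 0.08), all kinetochore genes, and the kinetochore was the one role with a median below 0 (-0.06). The widest 95% interval of these 6 was that of Ttk, from -0.04 to 0.53. The median difference was 0.17 within donor A, with 33 genes higher (background 53.3%), and 0.01 within donor B, with 19 higher (background 50%). With ADAR2 WT of donor A left out, the median log2 fold change was -0.03 and 16 genes were above 0. The share of all genes above 0 in that fit was not computed.

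Other genes of the cell cycle were read beside these. Of the 100 further mitosis genes, 99 were tested and 0 passed in any comparison. Their median log2 fold changes were 0.16 for ADAR2 WT over empty vector, 0.08 for ADAR2 E396A over empty vector and 0.06 for ADAR2 WT over ADAR2 E396A. In that order 87, 86 and 71 genes were above 0 (background 49.6%, 46.9% and 50.9%). At an unadjusted limma p under 0.05, 26 were higher and 1 lower in the first comparison (background 6.99% and 7.11%). The lowest unadjusted p-values in the first comparison belonged to Smc4, a condensin subunit (log2 fold change 0.32, limma adjusted p = 0.0934), and Mad2l1, the checkpoint protein MAD2 (0.39, limma adjusted p = 0.119), neither of which passed. The corresponding genes were Ckap2l (0.34) and Smc4 (0.25) for ADAR2 E396A over empty vector, and Shcbp1 (0.36) and Depdc1b (-0.46) for ADAR2 WT over ADAR2 E396A.

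Of the 50 genes of DNA replication and S phase, 0 passed in any comparison, and the medians in the same order were 0.13, 0.06 and 0.07. Above 0 were 43, 39 and 37 genes (background 49.6%, 46.9% and 50.9%). At an unadjusted limma p under 0.05, 12 were higher and 1 lower with ADAR2 WT over empty vector (background 6.99% and 7.11%). Nearest to passing were Clspn (0.29, limma adjusted p = 0.134) and Dut (0.30, limma adjusted p = 0.143) with ADAR2 WT, both involved in replication. With ADAR2 E396A they were Clspn (0.22) and Rfc3 (0.28), and between the constructs Ccne2 (0.25) and Orc1 (0.30). Of 14 inhibitors of cyclin-dependent kinases and quiescence genes, 13 were tested, 0 passed, and the medians were 0.01, -0.03 and 0.02. Their lowest unadjusted p-values were those of Rbl2 (-0.24) and Cdkn2b (1.02) with ADAR2 WT over empty vector, Cdkn1a (-0.17) and Cdkn1b (0.21) with ADAR2 E396A, and Cdkn1a (0.22) and Rbl2 (-0.21) between the constructs. Empty vector of donor A was also the lowest of the 6 for 63 of the 99 further mitosis genes. It was so for 24 of the 50 S-phase genes, against 18.9% of all genes tested.

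**Figure D5:**
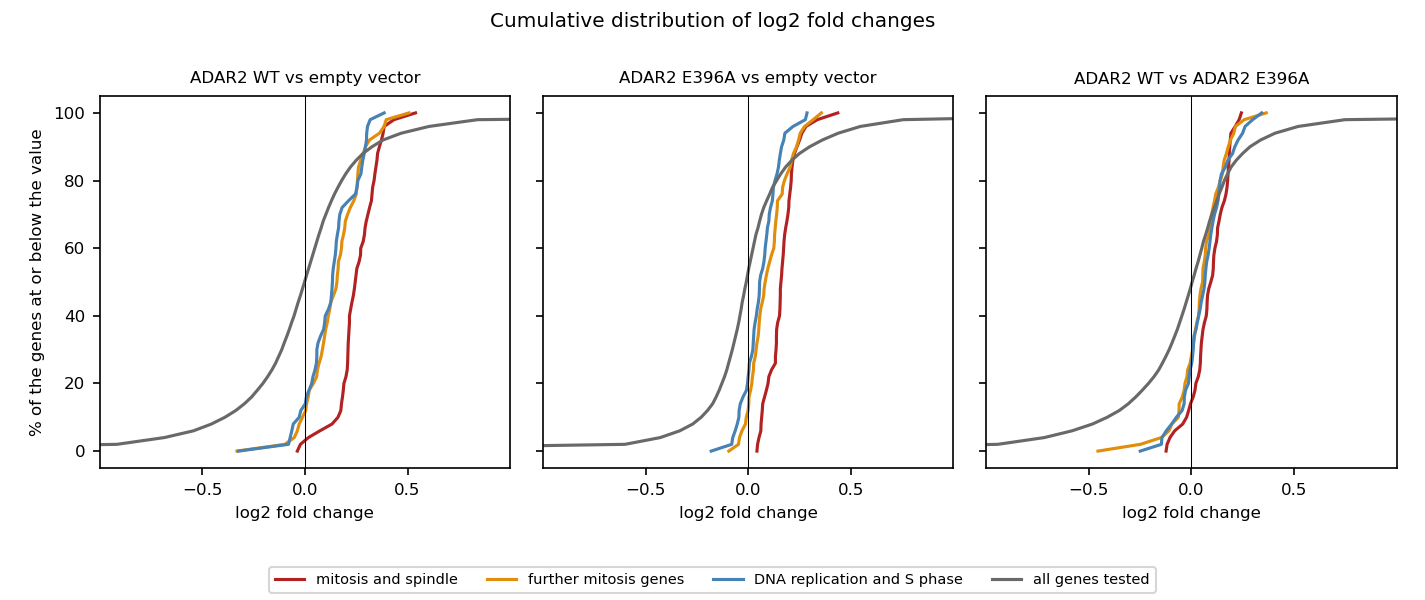
Share of genes (%) at or below each log2 fold change in the 3 comparisons, for the 36 mitosis and spindle genes (red), further mitosis genes (orange), DNA replication and S-phase genes (blue) and all 14958 genes tested (grey). The red curve crosses 50% at 0.25, 0.16 and 0.09, to the right of the other lists in each panel.

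Markers of other cell types were read for the same libraries. The 8 markers of CD8 T and NK cells summed to 1010 and 721 normalized counts in ADAR2 WT, 3200 and 1724 in ADAR2 E396A, and 2568 and 1581 in empty vector. Of the 6 tested, 3 fell with ADAR2 WT over empty vector, Klrc1 (-1.88, limma adjusted p = 0.00749), Klrd1 (-2.39, limma adjusted p = 0.0248) and Klrk1 (-1.38, limma adjusted p = 0.0416), which encode receptors of NK and activated T cells. Between the constructs Klrc1 fell (-1.75, limma adjusted p = 0.0268), and with ADAR2 E396A over empty vector 0 passed. Of the same list, Ncr1 and Klrb1c had 0 and at most 2 normalized counts, and Cd8a had 9 to 65. Most of the sum in each library thus came from the other markers of the list. These 3 were picked after they were seen and do not show that CD8 T or NK cells were absent. The median over the 8 CD4 T and Th17 markers was -0.22, 0.04 and -0.21 on the log2 scale in the 3 comparisons and 0 passed, with Il17a at 1.19 (limma adjusted p = 0.0803) and Cd3d at -0.30 (limma adjusted p = 0.141) nearest to it with ADAR2 WT. The part of these markers in the levels of the mitosis genes was not tested.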

How the data were processed

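Per the labels' protocols, libraries were made from RNA depleted of ribosomal transcripts and read on an Illumina NovaSeq. The submitters' processing notes name STAR 2.6.1a, featureCounts, DESeq2 1.18.1 and the mm10 build. How strand was treated is not given in the sources used here. A table per construct was deposited. Per the file headers, it gives the authors' DESeq2 output, namely a log2 fold change, a Wald statistic (a score), and a raw and an adjusted p-value. The deposited tables also hold normalized counts (a signal) for 4 libraries. The deposited fold changes are empty vector over construct; those given here run the other way.

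Each column was whole reads divided by 1 factor, and 100% of values above 0 gave whole reads within 0.001 of a read. A library found in both tables was assigned to empty vector, and each other library to the construct in the name of its table. Per the series' design, each construct was compared with empty vector of the same donor. The pairing of libraries by donor comes from the deposited statistics, not from a label: DESeq2 refitted with the pairing used here returned the deposited Wald statistics, with a largest difference of 0 over 28601 genes (ADAR2 WT) and 28872 genes (ADAR2 E396A). Without a donor term it was 6.672 and 2.033, and with crossed pairs 13.810 and 6.084. With 2 donors and a donor term, p-values rest on the spread left between these cultures once donor differences are removed. In limma this spread is also drawn towards a value pooled over genes.

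Recovered reads of all 6 libraries were scaled by median-of-ratios factors and filtered with edgeR's filterByExpr. They were tested as log2(normalized count + 1) with limma 3.58.1 in R 4.3.3, with a mean-variance trend and terms for group and donor. The moderated statistic had 8.42 degrees of freedom in total, which include those of the spread pooled over genes. Limma p-values and intervals thus rest in good part on the spread of other genes, not on these 6 libraries alone. Benjamini-Hochberg adjustment ran over 14958 genes with a threshold of 0.05. This log2 scale makes fold changes of low genes too small. Alternatives included edgeR 4.0.16 and DESeq2 1.42.0. Symbols, positions and exon lengths came from GENCODE vM21 (all 55450 IDs matched) and promoters from RefSeq (GRCm38.p6; 31 of 36 genes). Motifs were matched exactly on both strands, with the transcription start as base 0.

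The members and lists were chosen with earlier results of these data known. By rule, values per library are given for 17 members and for the 3 highest and 3 lowest fold changes per comparison. Of other lists, up to 4 passing genes are named, or else the 2 with the lowest unadjusted p. The plan had allowed printed promoters with TTTGAA or TTCGAA anywhere in the window. They were narrowed to those with TTTGAA upstream of the start. Values of the markers Cd4, Cd8a, Ncr1 and Klrb1c were chosen for printing after they were seen.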

Additional observations from a re-analysis of the deposited data

How the results depend on the processing

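Of the 36 members, 0 passed in every comparison under every alternative run, except for ADAR2 WT against empty vector: 2 passed with DESeq2, 20 with the 4 libraries of the comparison alone and 0 to 19 with a library left out (15 and 19 with ADAR2 E396A of donor A or donor B left out, 16 with empty vector of donor B left out, 0 otherwise). Fits on 4 or 5 libraries leave 1 residual degree of freedom. The numbers of all genes passing in the 3 comparisons (122, 2 and 10) became 212, 7 and 110 with DESeq2, 220, 5 and 102 without a filter, 1237, 1 and 194 with 4 libraries, and 0 each in limma without the mean-variance trend, where 1556, 757 and 1359 had an unadjusted p under 0.05; edgeR gave 127, 2 and 10. Without the replicate block, the donor pairing, they were 2, 1 and 0. Under a filter at a mean of 100 normalized counts, 36 genes passed in the first comparison and 3 in the third, and TMM factors gave 39 in the third. Leaving out a library gave 1 to 1217, 1 to 127 and 0 to 844. The cause of these shifts was not tested. The limma fit without the trend, chosen after the data were seen, left Adarb1 at 2.42 (adjusted p = 0.32) and 2.13 (adjusted p = 0.706). Between the constructs Adarb1 was at 0.29 (adjusted p = 0.161), at 0.29 with 4 libraries (adjusted p = 0.0443), and from 0.22 to 0.37 with a library left out.

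The members' median log2 fold change was 0.24 to 0.26, 0.16 to 0.19 and 0.08 to 0.10 under the other tests, scalings, filters and pseudocounts. With a library left out it was 0.15 to 0.35, 0.06 to 0.27 and -0.03 to 0.21, and the members above 0 numbered 32 to 36, 23 to 36 and 16 to 34. The shares of all genes above 0 in those fits were not computed. Named members changed sign only on leaving out a library, except Cenpa, which was at 0 for ADAR2 WT over empty vector with total reads as scale. For ADAR2 WT over empty vector the ranges were -0.07 to 0.19 (Ect2), -0.07 to 0.04 (Cenpa) and -0.18 to 0.10 (Spc25), and among members that kept their sign 0.05 to 0.36 (Cdk1), 0.06 to 0.44 (Ccnb1), 0.07 to 0.42 (Birc5), 0.09 to 0.49 (Cdc20), 0.10 to 0.32 (Top2a), 0.17 to 0.59 (Ttk), 0.29 to 0.78 (Ube2c) and 0.16 to 0.38 (Prc1). For ADAR2 E396A over empty vector they were -0.12 to 0.26 (Ccnb1), -0.01 to 0.20 (Cdk1), -0.12 to 0.24 (Plk1), -0.02 to 0.30 (Aurkb), -0.07 to 0.35 (Ttk), -0.14 to 0.26 (Cdc20), -0.08 to 0.17 (Aurka) and -0.03 to 0.12 (Ect2). For ADAR2 WT over ADAR2 E396A they were -0.04 to 0.18 (Top2a), -0.05 to 0.27 (Cdk1), -0.03 to 0.28 (Plk1), -0.09 to 0.19 (Aurkb), -0.05 to 0.14 (Birc5), -0.05 to 0.02 (Bub1b), -0.05 to 0.16 (Prc1), -0.02 to 0.14 (Anln), -0.14 to 0.35 (Ube2c) and -0.26 to 0.02 (Spc25). With 2 cultures per group, a p that misses the threshold does not show that levels were equal.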
